A study of Mus musculus with 6 samples.

Results

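Integrins and laminins were followed as a family of 34 genes, 24 integrin subunits and 10 laminin subunits, in differentiating mouse embryonic stem cells. The members were every gene on the array whose single platform symbol names an integrin alpha or beta chain or a laminin alpha, beta or gamma chain. They were 34 of 18193 genes and held 73 of 45037 probe sets. Where a gene had several probe sets, the brightest on average stood for it. Itga11 and Itgad had no probe set with a single symbol and were not analysed here.

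All 6 arrays came from 1 engineered line, A2.miR200c, a derivative of A2lox embryonic stem cells that carries the miR-200c and miR-141 microRNAs under a doxycycline-inducible promoter. The cells had been kept on irradiated feeders, passaged once without them, and then grown in suspension as embryoid bodies, which are aggregates that pass through an epiblast-like stage before germ layer formation. RNA was taken on each of days 3, 4 and 5 of differentiation from cells left untreated and from cells induced with doxycycline at 500 ng/mL, added on days 2 and 4. Each combination of day and treatment was 1 array, so a single day had no replicate. Tests of induction used the 3 days as the repeats, although the labels do not say whether the days came from separate cultures. The test of day 5 against day 3 used the untreated and induced arrays as the samples of a day, and these are not replicates. No doxycycline-treated line without the microRNAs was among these arrays, so an effect of the drug and an effect of the microRNAs cannot be told apart.

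An integrin is a heterodimer of an alpha and a beta chain that spans the plasma membrane and ties matrix outside the cell to the actin cytoskeleton inside. A laminin is a trimer of an alpha, a beta and a gamma chain and is the main polymer of basement membranes, the sheets on which epithelia such as the epiblast rest. When cells leave an epithelium for mesoderm, as at gastrulation, they lose contact with the basement membrane, and the set of integrins they carry is known to change.

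The 2 induced microRNAs belong to the miR-200 family, which holds cells in an epithelial state by repressing the transcription factors Zeb1 and Zeb2. Their mature sequences, from RefSeq on GRCm38.p6, are shown because doxycycline was given to induce them in this line. The capitals mark the seed, bases 2 to 8. Both lie on the minus strand, miR-200c-3p at chr6:124718324-124718346 and miR-141-3p at chr6:124717917-124717938, and their seeds differ at 1 base.
mmu-miR-200c-3p: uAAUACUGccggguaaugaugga
mmu-miR-141-3p: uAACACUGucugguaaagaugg

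Zeb and Snail factors are known to bind the E-box CACCTG, read CAGGTG on the opposite strand. The 250 bases upstream of the annotated start are shown for Lama5, Itga3 and Itgb8, which had an entry and were higher on induced day 5, and for Itga4, which was lower. The capitals mark the E-box in either orientation. The windows, from RefSeq on GRCm38.p6, are chr2:180225860-180226109 on the minus strand for Lama5, chr11:95076715-95076964 on the minus strand for Itga3, chr12:119238277-119238526 on the minus strand for Itgb8 and chr2:79255176-79255425 on the plus strand for Itga4.
Lama5: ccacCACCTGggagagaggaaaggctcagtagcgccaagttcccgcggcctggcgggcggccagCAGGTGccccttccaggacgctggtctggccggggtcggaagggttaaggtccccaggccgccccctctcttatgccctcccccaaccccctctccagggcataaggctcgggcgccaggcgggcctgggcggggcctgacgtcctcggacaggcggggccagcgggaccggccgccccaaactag
Itga3: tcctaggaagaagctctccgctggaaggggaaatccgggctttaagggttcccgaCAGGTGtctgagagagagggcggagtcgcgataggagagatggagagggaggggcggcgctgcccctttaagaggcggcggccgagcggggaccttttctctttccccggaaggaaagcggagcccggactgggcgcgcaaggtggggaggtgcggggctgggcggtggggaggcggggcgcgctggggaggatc
Itgb8: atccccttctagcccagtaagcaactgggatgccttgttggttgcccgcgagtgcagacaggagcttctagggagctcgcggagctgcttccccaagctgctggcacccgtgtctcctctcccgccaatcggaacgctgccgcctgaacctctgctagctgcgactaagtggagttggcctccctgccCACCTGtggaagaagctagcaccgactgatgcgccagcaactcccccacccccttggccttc
Itga4: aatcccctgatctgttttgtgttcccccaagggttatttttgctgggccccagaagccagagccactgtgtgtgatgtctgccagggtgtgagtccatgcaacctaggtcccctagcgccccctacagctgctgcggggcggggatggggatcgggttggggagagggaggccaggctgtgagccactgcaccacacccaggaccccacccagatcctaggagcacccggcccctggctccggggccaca
The E-box lay 246 and 186 bases upstream of the start in Lama5, 195 in Itga3 and 62 in Itgb8. It was found in 7 of the 22 members with an entry (31.8%) and in 19.4% of all 27025 genes, or 17.2% of all 32851 windows of this length. Of the 8 tested members with an entry that were higher on induced day 5, 3 held it (Itga3, Itgb8 and Lama5) and Itga5, Itga8, Itgav, Itgb1 and Lamb1 did not. Of the 3 that were lower, Itga9 and Itgb5 held it and Itga4 did not. A further start of Itga3 had no match. A match is a description of these letters and not a site or a cause, and no match says only that the letters are not in the window. Of the tested members, Itga6, Itgae, Lama1 and Lamc1 had no entry. Among these Itgae was lower on induced day 5 and the others were higher.

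By the probe set that stood for the gene, 22 of the 34 members were above background on at least 1 array, 15 on all 6, and 12 on none. Background was an intensity of 36.8, the 95th percentile of 76 chemosensory receptor genes, known from smell and taste. The 15 members whose highest intensity reached 80.1, the median of all gene values, entered the tests with 9997 genes in all. Itga4 and Itga9 entered through 1 array alone, untreated day 5, so they had to differ, and counts over the tested members are descriptions. Array medians ran from 34.5 to 36.9, and 48.7% to 50.1% of genes on an array were above background.

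**Figure D1:**
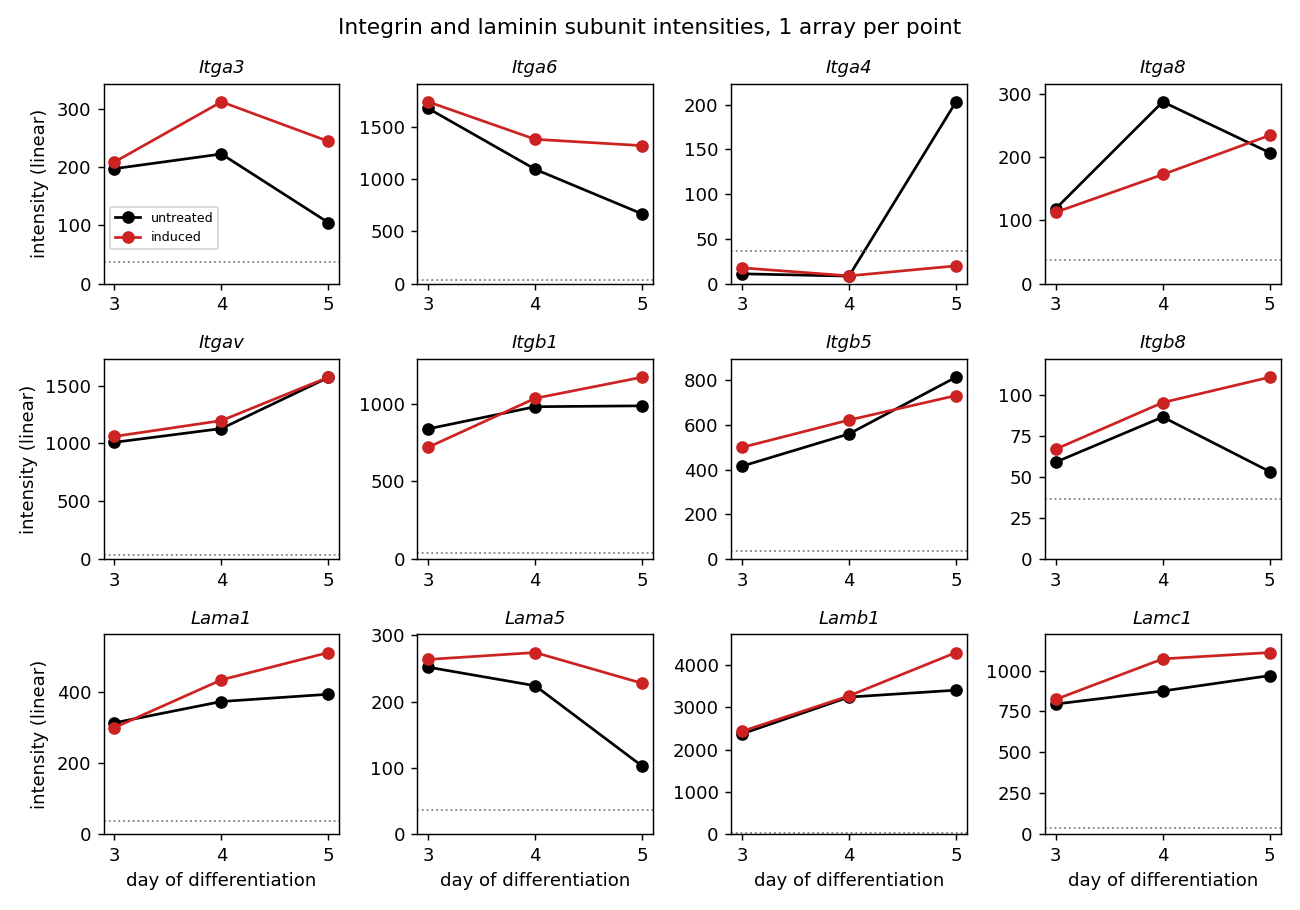
Intensity (linear scale, from 0) of the members named by the rule on days 3, 4 and 5, with 1 array per point, untreated and induced drawn as separate lines and the background of 36.8 as a dotted line. Itga3, Itga6 and Lama5 were lower on day 5 than on day 4 in the untreated arrays, where their day 5 intensities were 104.5, 666.5 and 102.6, while Itga4 reached 203.0 on untreated day 5 alone.

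On day 5 Itga3 and Itga6, alpha chains that bind laminin, and the laminin chain Lama5 read higher with induction than without. Itga6, which pairs with beta 1 or beta 4 as a laminin receptor and is abundant on embryonic stem cells, read 1677.8, 1094.5 and 666.5 on untreated days 3, 4 and 5 and 1741.1, 1381.8 and 1321.1 on the induced arrays. The treatments were thus close on day 3 and 1.98-fold apart on day 5. A second Itga6 probe set read 527.1 untreated and 1007.9 induced on day 5. The induced minus untreated difference of Itga6, on the scale of log2(intensity + 50) used for all differences and tests, was 0.05, 0.32 and 0.94 on the 3 days.

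Itga3, the alpha chain of another laminin receptor, of epithelia, read 197.4, 222.6 and 104.5 untreated and 208.8, 312.3 and 244.3 induced. Its difference was 0.06, 0.41 and 0.93. The other Itga3 probe sets above background differed by 0.06 and 0.43 on day 5, so on that day the size depended on the probe set while the sign did not. On days 3 and 4 the first of these differed by -0.21 and -0.09, and the second by 0.06 and 0.48.

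Lama5, an alpha chain of laminins that epiblast and stem cells bind, read 251.8, 223.8 and 102.6 untreated and 263.5, 273.9 and 227.5 induced. Its difference was 0.05, 0.24 and 0.86. A second probe set of Lama5 gave 0.61 on day 5. On the linear scale the induced day 5 array was 2.34-fold above the untreated one for Itga3 and 2.22-fold for Lama5.

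Itgb8, the beta chain that pairs with alpha v to bind latent TGF-beta, had 1 probe set and was near the threshold of the tests. It read 59.1, 86.7 and 53.3 untreated and 67.1, 95.6 and 111.1 induced, a difference of 0.64 on day 5. These 4, Itga3, Itga6, Itgb8 and Lama5, were the tested members at least 1.5-fold higher on induced day 5, a size reached by 5.24% of all genes. Days 3 and 4 had none.

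Itga4, the alpha chain of the VCAM-1 and fibronectin receptor of blood progenitors and mesoderm, ran the other way. It read 10.9, 8.3 and 203.0 untreated and 17.5, 8.6 and 19.7 induced. It was therefore above background on untreated day 5 alone, where it was at least 5.52-fold higher than on induced day 5, taking the background as the floor. Fitted values of Itga4 rest on arrays below background and are not exact. A second probe set read 146.0 and 9.6 on the same arrays. In this bulk RNA, fewer cells of a type and less RNA per cell cannot be told apart.

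Markers of blood moved with Itga4. The summed intensity of 10 blood and megakaryocyte markers was 3091 on untreated day 5 and 426.3 on induced day 5, and between 220.4 and 373.8 on the other 4 arrays, with Pf4, Gp9 and Gp1bb below background throughout. Hbb-bh1, an embryonic globin, read 1600.4 and 40.0, and Tal1, a blood transcription factor, 389.0 and 30.4 on day 5. Endothelial markers summed to 4014 and 1949, with Pecam1, Tie1 and Emcn below background. The part of these cells in the Itga4 value was not tested.

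On day 5, markers of epiblast and of epithelia were higher with induction, as were Itga6, Itga3 and Lama5. The summed intensity of 10 epiblast and pluripotency markers was 8868 on untreated day 5 and 20340 on induced day 5, against 32990 and 33220 on day 3, and all 10 were higher on induced day 5. The 10 epithelial markers summed to 20600 and 33730 on day 5, and 6 of them were at least 2-fold higher with induction. In the untreated arrays the epithelial sum was 17810, 19750 and 20600 on days 3, 4 and 5, but its markers moved both ways. Krt8 (766.9 and 7013.0), Krt18 (1755.5 and 6278.0) and Krt19 (180.8 and 1050.6) were higher on untreated day 5 than on untreated day 3. The other markers of the list, Cdh1 (7232 and 3963.3), Epcam (3232.5 and 649.2), Cldn6, Cldn7, Esrp1, Ocln and St14, were lower, as were Itga6 and Lama5. Feeder fibroblast markers summed to between 144.4 and 373.9, with Lum, Col6a3 and Fbln5 below background, and leukocyte markers to between 194.1 and 271.4, with Ptprc, Csf1r, Tyrobp, Fcer1g and Cd3e below it. The part of these cells in the member values was not tested.

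**Figure D2:**
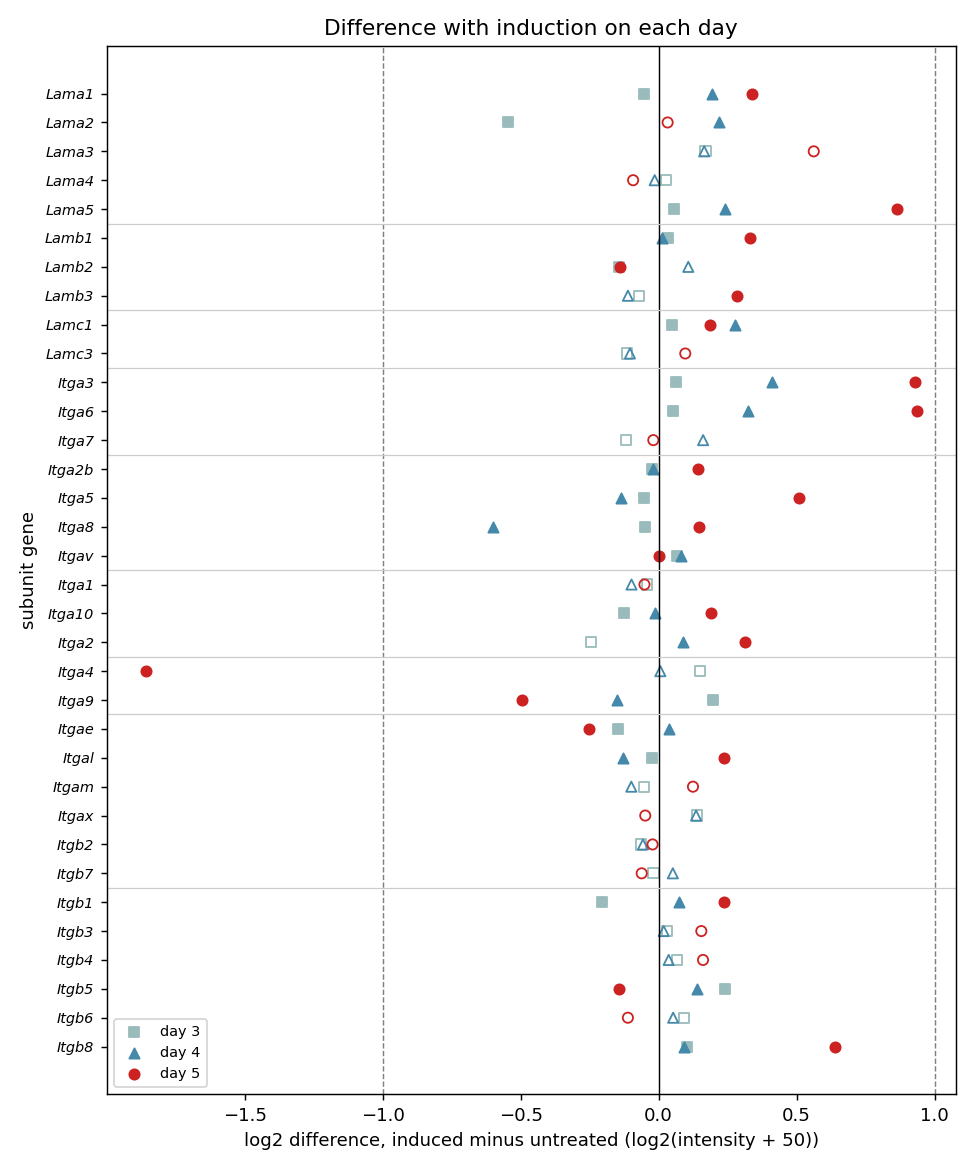
Difference between induced and untreated, in log2(intensity + 50), for the members on each day, with 1 pair of arrays per point hollow points where both arrays were below background, grey lines between roles and dashed lines at 2-fold. On day 5 Itga6 (0.94), Itga3 (0.93) and Lama5 (0.86) lie furthest right and Itga4 furthest left, drawn at -1.86 with its induced array below background.

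The effect of induction over the 3 days was not called by limma for any member, nor for any of the 9997 genes (0%) at an adjusted p of 0.05. At an unadjusted p under 0.05 there were 842 genes, among them 1 member, Itga3. The mean difference was 0.47 ± 0.44 (SD, n = 3 days) for Itga3, 0.44 ± 0.45 for Itga6, 0.39 ± 0.42 for Lama5 and -0.57 ± 1.12 for Itga4. The SD was near the mean for Itga3, Itga6 and Lama5 and above its size for Itga4, and the differences were larger on day 5 than on day 3. The limma adjusted p was 0.573 for Itga3, Itga6 and Lama5, the smallest over all genes, and 0.687 for Itga4.

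The slope of the treatment difference over days was likewise called for no member and for 0% of genes, with 1322 genes and 6 members at an unadjusted p under 0.05. The members were Itga3, Itga4, Itga6, Itga9, Itgb1 and Lama5. Itga4 and Itga9 entered the tests through untreated day 5 alone, so the filter favoured a negative slope for them and their values are descriptions. The estimate was 0.44 ± 0.08 (SE) log2 per day for Itga6, 0.43 ± 0.10 for Itga3, 0.40 ± 0.11 for Lama5 and -1.005 ± 0.26 for Itga4. Their limma adjusted p-values were 0.146, 0.188, 0.234 and 0.218, with 1 residual degree of freedom in this fit.

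Counted by size, 0 members were at least 2-fold apart on day 3, where 0.02% of genes were, and 0 on day 4, where 0.58% were. On day 5, 0 members were 2-fold higher with induction against 1.97% of genes, and 1, Itga4, was 2-fold lower against 1.52%. The pseudocount of 50 holds Itga3 and Lama5 just under 2-fold on this scale, and with a pseudocount of 16 both passed it. The median difference over all 34 members was -0.02 on day 3, 0.04 on day 4 and 0.14 on day 5, beside 0.00, 0.02 and 0.02 over all genes tested. On day 5, 22 of the 34 (64.7%) were higher with induction, beside 53.2% of all genes tested. The signs of the 12 members below background carry no information. The 34 were not filtered by intensity, unlike the genes tested. Over the 15 members tested the medians were 0.05, 0.08 and 0.24 on days 3, 4 and 5, and 73.3% were higher on day 5. Of the 22 above background on at least 1 array, 17 were higher and 5 lower, with no share over all genes under the same filter to set beside it. Among the 17, Lama2 was below background on both day 5 arrays (29.1 untreated and 30.9 induced) and Lamb3 just above it on the induced one (22.2 and 37.9).

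The alpha 1, beta 1 and gamma 1 chains, which form the first laminin of the embryo, rose from day 3 to day 5. Lamb1, its beta chain, read 2370.1, 3239.8 and 3402.7 untreated and 2429.5, 3268.6 and 4291.8 induced, and Lamc1, the gamma chain, 795.2, 874.7 and 968.9 untreated and 823.7, 1071.1 and 1109.8 induced. Lama1, the alpha chain, read 313.7, 373.7 and 394.1 untreated and 300.2, 434.6 and 511.6 induced. Both day 5 arrays lay above both day 3 arrays for each of these chains. The day 5 minus day 3 change, averaged over the treatments, was 0.66 ± 0.09 (SE) for Lamb1, 0.48 ± 0.12 for Lama1 and 0.34 ± 0.09 for Lamc1, with limma adjusted p-values of 0.0067, 0.0315 and 0.0362.

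Summed markers of other cell types were also higher on day 5 than on day 3. Of the tested markers, 5 of 9 of extraembryonic endoderm and 7 of 8 of early mesoderm were called higher, beside 20.6% of all genes. Extraembryonic endoderm is a source of laminin and of Lama1 in particular. Its 14 markers summed to 1450 untreated and 1217 induced on day 3 and to 6132 and 7259 on day 5. Hnf4a, Afp, Apoa1 and Thbd were below background on every array. Gata4, Gata6, Sox7, Sox17, Foxa2 and Pth1r were higher on untreated day 5 than on untreated day 3. Sox17, an epiblast marker in the paper, read 168.8 on untreated day 3 and 2914.3 on untreated day 5. Cubn (465.4 and 224.0), Amn (127.3 and 71.2) and Dab2 were lower on untreated day 5, so the sum is not a measure of that tissue alone. On day 5, 5 of the 9 tested markers of this list were higher with induction and 4 lower. Foxa2 read 581.7 untreated and 1345.7 induced, and Sox7 756.1 and 166.5. Early mesoderm markers summed to 1104 and 787.5 on day 3 and to 13890 and 14420 on day 5. The day 5 sums were close, but 5 of the 8 tested markers were lower with induction and 3 higher. Foxf1 (1171.9 untreated and 131.8 induced) and Hand1 (528.4 and 127.7) were at least 2-fold lower, while Mixl1 was higher (1713.7 and 3372.7). The part of these cells in the laminin values was not tested.

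Itgav and Itgb5, which form a receptor with each other, rose as well, while Itgb8, a further partner of alpha v, did not pass (0.19 ± 0.18 SE; limma adjusted p = 0.428). Itgav, the alpha chain of receptors for vitronectin and fibronectin, went from 1009.5 to 1571.8 untreated and from 1060.6 to 1573.9 induced, a change of 0.58 ± 0.07 (SE) with a limma adjusted p of 0.0049, and its treatments differed by 0.07, 0.08 and 0.00 log2 on the 3 days. Itgb5, a beta partner of alpha v, went from 414.8 to 813.3 untreated and from 498.9 to 731.0 induced, a change of 0.70 ± 0.12 with an adjusted p of 0.0111. The induced minus untreated difference on day 5 was negative in all 4 Itgb5 probe sets, from -0.13 to -0.29.

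Itgb1, the beta chain shared by most matrix receptors, went from 837.2 to 985.5 untreated and from 718.8 to 1170.0 induced, a change of 0.44 ± 0.12 (SE; limma adjusted p = 0.0416). Itga8, which pairs with beta 1 to bind nephronectin, went from 118.7 to 207.4 untreated and from 113.0 to 235.0 induced, a change of 0.71 ± 0.20 with an adjusted p of 0.0408. On day 4 Itga8 read 288.2 untreated and 172.9 induced. It was the only tested member at least 1.5-fold lower with induction that day, with no share over all genes at this size to set beside it. Early mesoderm markers were lower on the same array, with a sum of 12000 untreated and 6354 induced. The tested markers were lower in 8 of 8 cases, among them Mesp1 (683.9 and 193.3) and Pdgfra (590.8 and 199.4). Over all 9997 genes tested, 4593 were lower with induction on day 4. The part of these cells in the Itga8 value was not tested.

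Itga6 was the 1 member called lower on day 5 than day 3, at -0.83 ± 0.21 (SE) with a limma adjusted p of 0.0332. Its change was -1.27 untreated and -0.39 induced. In all, 7 members were called higher, beside 20.6% of genes, and 1 lower, beside 19.2%. Without the day 4 arrays the calls of Itga6, Itgb1, Lama1 and Lamc1 were lost, leaving 4 higher and 0 lower. The call of Itgb1 was also lost with no filter, under quantile normalization or a common median, with the mean of all probe sets and with no intensity trend. That of Lamc1 was lost under both normalizations and with the mean of all probe sets (0.09), that of Itgav with the mean of all probe sets (0.19), that of Itga8 with no filter, the mean of all probe sets or no trend, and that of Itga6 with no trend. Lama5, at -0.58 ± 0.21 with an adjusted p of 0.081, and Itga3, at -0.25 ± 0.21 with 0.398, did not pass.

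**Figure D3:**
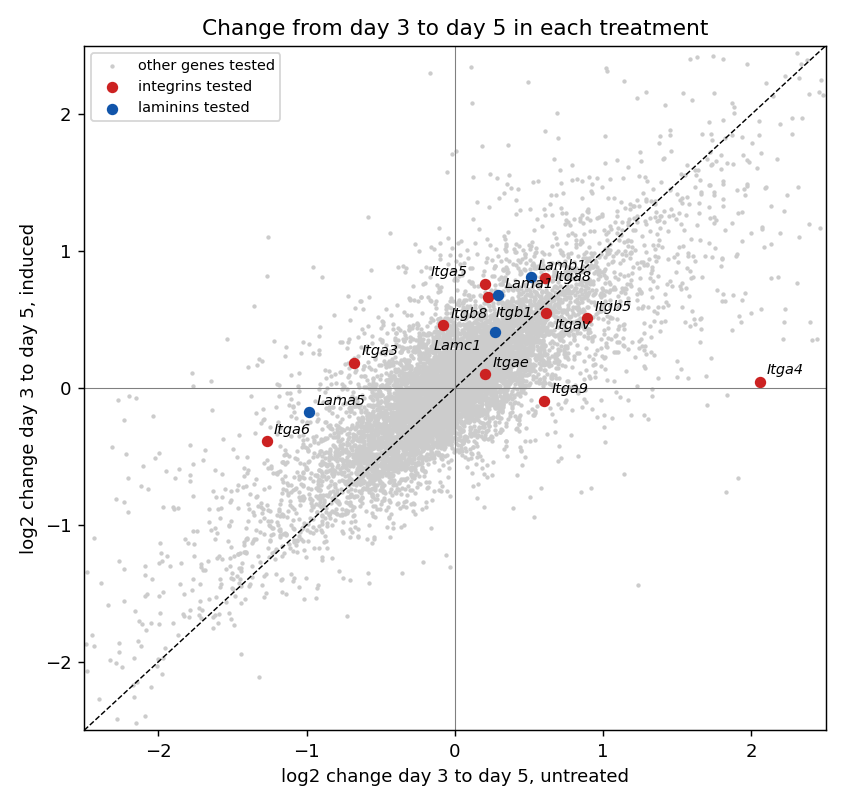
Log2 change from day 3 to day 5 in the untreated arrays (x axis) against the induced arrays (y axis), for the members over all genes tested in grey, with axes limited to 2.5 either way and genes outside not drawn. Itga6 (-1.27, -0.39), Lama5 (-0.98, -0.18) and Itga3 (-0.68, 0.19) lie above the diagonal and Itga4 far below it, drawn at 2.06 and 0.05 with its day 3 arrays below background.

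By size within 1 treatment, Itga4 was at least 2-fold higher on untreated day 5 than on day 3, beside 5.93% of genes, and Itga6 at least 2-fold lower, beside 4.86%. Among induced arrays 0 members were 2-fold higher, beside 4.67% of genes, and 0 were 2-fold lower, beside 3.07%. The untreated changes of Lama5 and Itga3 were -0.98 and -0.68, and the induced ones -0.18 and 0.19.

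Outside the rule for named genes, with values already seen, Itga5, the alpha chain of the classical fibronectin receptor, read 88.0 untreated and 146.4 induced on day 5. Itga9, a receptor chain for tenascin and other ligands, read 97.1 and 54.3, and Itgae, known from intraepithelial lymphocytes, 86.8 and 64.8. The 7 members above background but not tested were Itga10, Itga2, Itga2b, Itgal, Lama2, Lamb2 and Lamb3, all under 80.1. Itga2b, the platelet and early blood progenitor chain, stayed between 50.9 and 63.9 on all 6 arrays. By the probe set that stood for them, the members below background throughout were Itga1, Itga7, Itgam, Itgax, Itgb2, Itgb3, Itgb4, Itgb6, Itgb7, Lama3, Lama4 and Lamc3. A second probe set of Lama4 was above background on untreated day 5 alone. The 12 include the leukocyte beta 2 and hemidesmosome beta 4 chains.

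Several probe sets could be compared within a gene. Of 11 members with 2 or more probe sets above background, all 11 had the same sign of difference on day 5 in every such probe set. Probe sets of a gene share the RNA and the array, so they are not replicates.

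**Figure D4:**
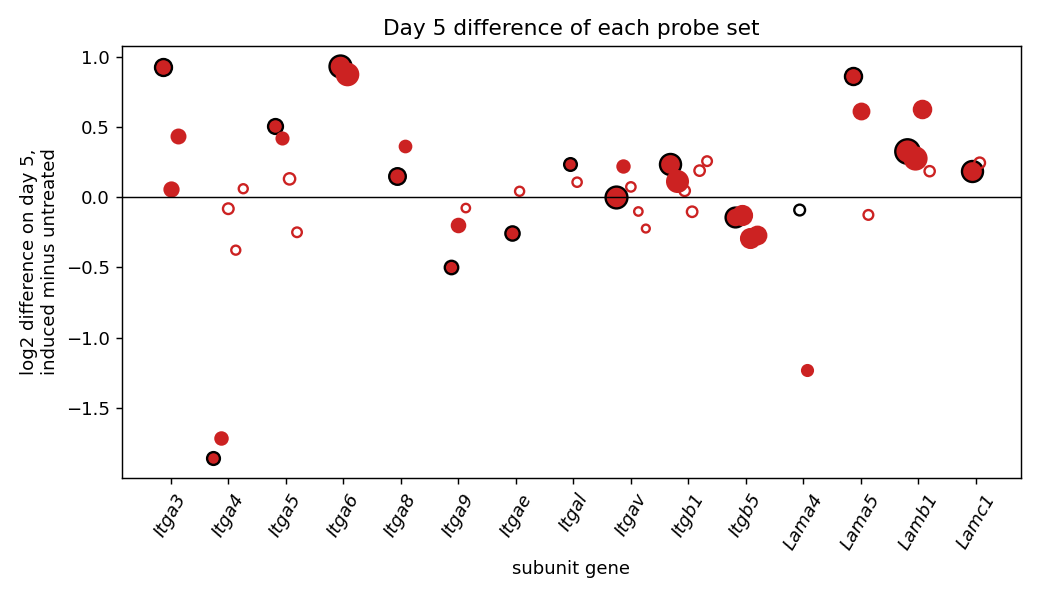
Day 5 difference between induced and untreated, in log2(intensity + 50), for each probe set of the 15 members with several probe sets and at least 1 of them above background. A black edge marks the probe set that stands for the gene, a hollow point one below background on all arrays, and size the mean intensity. The Itga6 probe sets lie at 0.94 and 0.87 and the brightest of Itga4 are drawn at -1.86 and -1.72, with their induced arrays below background.

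Partners of the family were read from 3 lists. Of 16 tested basement membrane partners, 7 were higher and 9 lower on induced day 5, none was called for induction, and 9 were called higher and 1 lower on day 5 than day 3, against the 20.6% and 19.2% of all genes given above. Nid1, which links laminin to collagen IV, read 825.5 without and 369.8 with induction on day 5, and Col4a5, a collagen IV chain, 251.4 and 117.9. Bcam, a receptor for Lama5, read 75.2 and 167.7 and Frem2, a basement membrane protein, 106.5 and 279.3. Both Nid1 and Col4a5 rose from day 3 to day 5, Nid1 by 1.25 log2 (limma adjusted p = 0.0289) and Col4a5, below background on day 3, at least 6.83-fold untreated and 3.2-fold induced (limma adjusted p = 0.0084).

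Of 22 tested genes of the adhesion machinery inside the cell, 8 were higher and 14 lower on induced day 5, and 9 were called higher and 2 lower on day 5 than day 3. Ptk2b, an adhesion kinase, differed by 0.60 and 0.62 on days 3 and 4 and was at least 2.24-fold higher with induction on day 5, where its untreated array was below background. Parvb, which joins integrin-linked kinase to actin, differed by -0.93 on day 5. Cd9, a tetraspanin that associates with integrins, differed by 0.70 and Tln2, a talin that activates them, by -0.55 on day 5. Of 7 tested ligands other than laminin, 3 were higher and 4 lower, and 4 were called higher and 1 lower over time. Fn1, fibronectin, read 5749.9 and 2525.7 in the untreated and induced dishes of day 4, and 9825.9 and 9313.2 a day later. On day 5 Col1a1, a fibrillar collagen, read 577.2 and 89.7, Thbs1, a thrombospondin, 56.4 and 143.2, and Icam1, a ligand of beta 2 integrins, 27.3 and 56.6. No gene of the 3 lists was called for induction.

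**Figure D5:**
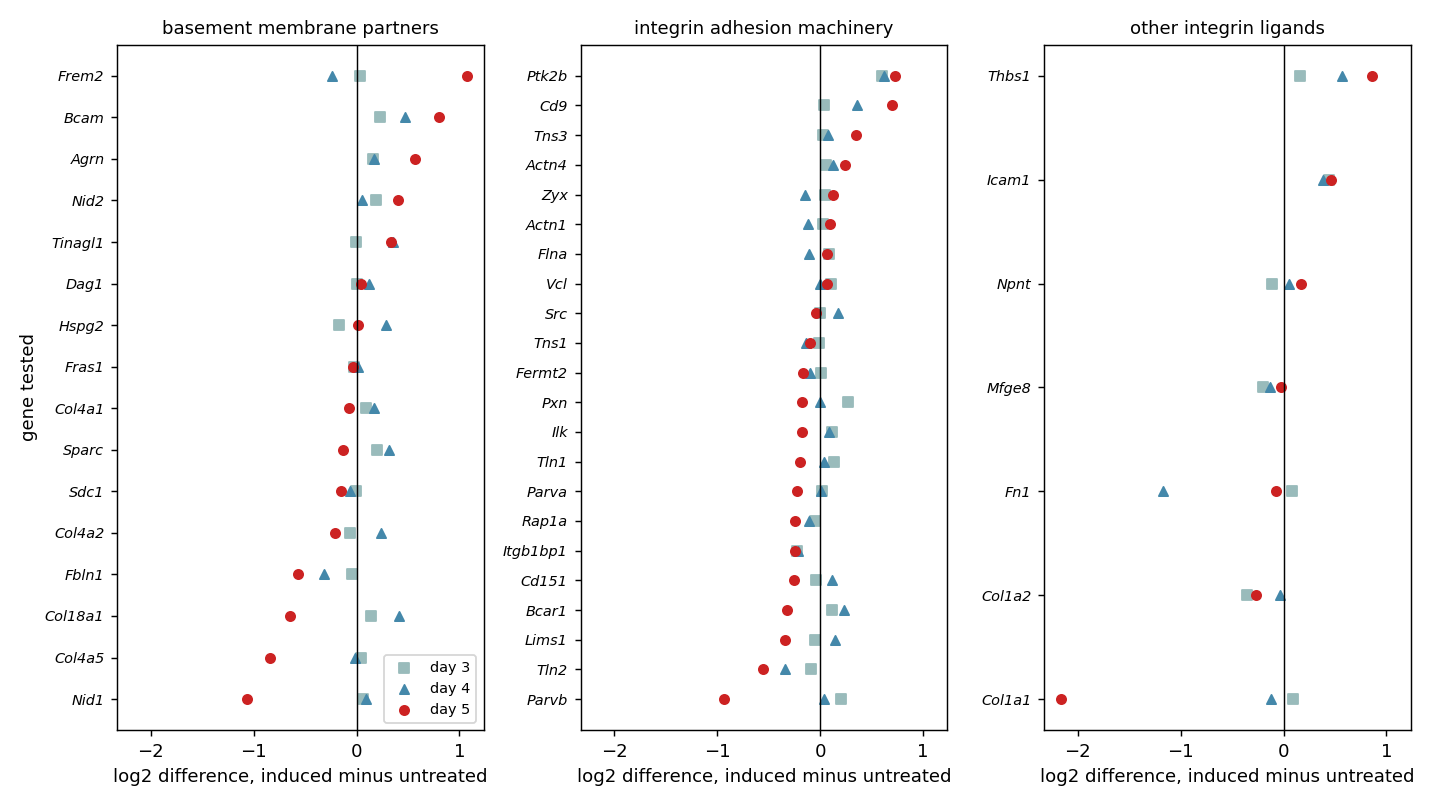
Difference between induced and untreated, in log2(intensity + 50), on days 3, 4 and 5 for the tested genes of the 3 partner lists, ordered by day 5, with 1 pair of arrays per point. On day 5 both directions are present in each list, from Nid1 (-1.06) to Frem2 (1.07) among basement membrane partners, and Col1a1 (-2.17) lies lowest.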

How the data were processed

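Expression was measured on 6 Affymetrix mouse arrays, 1 for each day and treatment. The deposited values are intensities on a linear scale, 1 per probe set, which the authors normalized and summarised with dChip; its settings are not given in the sources used here. Probe sets were named from the platform annotation: 34945 had 1 symbol, 932 several and 9160 none. The probe set with the highest mean stood for a gene. Genes whose highest value reached 80.1 were tested on log2(intensity + 50) with limma 3.58.1 in R 4.3.3 (intensity trend on, Benjamini-Hochberg over all 9997 genes). One fit had treatment and day as terms (2 residual degrees of freedom) and another added treatment by day (1). Whether the days came from separate cultures is not given in the sources used here, so p-values measure only the spread between these arrays. The rule named members above background that were at least 1.5-fold apart on a day or passed a test, which gave 12, and up to 4 genes of a partner list by largest difference. Members and lists were chosen with earlier results of these data known. Alternatives covered the pseudocount, the filter, normalization, probe sets, the model and leaving out each day. The number of arrays limits the precision. Scripts were tested on simulated data.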

Additional observations from a re-analysis of the deposited data

Results flagged for a closer look

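A second probe set of Lama4, the laminin alpha chain of vessels and mesenchyme, read 84.3 on untreated day 5 and 7.3 on induced day 5, and at most 13.2 on the other 4 arrays. It stood out because its mean over the arrays, 18.8, was just under the 19.2 of the probe set that stood for the gene, which was below background on all 6 arrays, so the gene's own value does not show it. Blood and endothelial markers were also highest on untreated day 5, and their part in this value was not tested.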

How the results depend on the processing

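Over 14 alternatives, 286 of 310 single-member values kept their direction and their side of the threshold, 17 lost a call, 3 gained one and 4 changed sign. The sign changes were all in induction differences that passed no test: Itgb5 was -0.0023 without day 3, Itga8 0.049 without day 4, and Itga4 0.078 and Itgb1 -0.066 without day 5. The number of members at least 2-fold apart on day 5, 1 as reported, was 3 with a pseudocount of 16, 4 with a pseudocount of 1, 2 under quantile normalization or with every probe set on its own, and 0 with the mean of all probe sets or when genes had to be above background on 2 or more arrays, which leaves out Itga4. Between days 3 and 5, the count was 4 untreated and 2 induced with a pseudocount of 1, and 1 untreated with the background filter or the mean of all probe sets. Members called higher on day 5 than day 3 numbered 3 with the mean of all probe sets and 4 without day 4. Those called lower numbered 2 with no filter, with the mean of all probe sets, with every probe set or with treatment by linear day, and 0 with no intensity trend or without day 4. With every probe set on its own, 1 member, Itga6, was called for the change per day (limma adjusted p = 0.0494). Genes called for induction numbered 145 with treatment by linear day, none of them a member, and 2 without day 5. Other causes were not tested. The fits already pair the treatments within a day.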
